A study of Mus musculus with 6 samples.

Results

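The genes described here are 41 genes of the Nrf2 pathway, of glutathione and thioredoxin metabolism and of antioxidant defence, chosen by name. A gene entered with the probe set that carries its symbol alone in the platform annotation and, where there were several, with the one of the highest mean over the 6 arrays. By this rule 37 of the 41 genes were measured, of 22180 genes in all. Of the 4 that were not, Prdx1 and Gstm5 have only probe sets that carry further symbols, and Prdx5 and Prdx6 have none under their symbol. The RNA came from fibroblast-like synoviocytes, which line the joint, build its matrix and were cultured here from C57BL6 knees to passages 4 to 8. The Mock group (n = 3) had received an empty adenovirus and the Ad-Epas1 group (n = 3) an adenovirus that carries Epas1, the gene of the oxygen-regulated transcription factor HIF-2alpha. Both viruses were given at a multiplicity of infection of 800 for 2 h, followed by 24 h of culture, so the comparison asks what Epas1 adds to an adenoviral infection that all cells shared. The submitters' design text calls the 3 samples of each group biological replicates. The labels name no animal or culture of origin for a replicate. Each p-value therefore rests on the spread of these 6 samples, whose sources cannot be said more closely. An array is named below by its group and its replicate number (Mock array 2 is Mock replicate 2). Values are log2 levels after RMA, and differences are log2 fold changes of Ad-Epas1 over Mock from limma, called at an adjusted p under 0.05 over all 22180 genes. Precision is limited by the number of arrays.

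Nrf2, the product of Nfe2l2, is a transcription factor that Keap1 holds in the cytoplasm and delivers to the proteasome. Oxidants and electrophiles modify Keap1, and Nrf2 then enters the nucleus, pairs with a small Maf protein and binds the antioxidant response element in front of genes for cystine uptake, glutathione synthesis, thioredoxin reduction, quinone reduction and conjugation. Other enzymes described here, such as the superoxide dismutases and most glutathione peroxidases, have further controls of their own. In joint tissue these systems handle the oxidants that macrophages, neutrophils and stressed fibroblasts release.

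Of the 37 measured antioxidant genes, 8 rose in Ad-Epas1 cells, 2 fell and 27 missed the threshold. The rises were 21.6% of these genes, where 6.57% of all genes rose, and the falls were 5.41%, where 9.75% of all genes fell. These shares are over genes of any level. Among only the genes above the median level, fewer in number, 1378 rose and 2180 fell, so both shares were higher. In that fit 12 of 35 antioxidant genes rose and 2 fell. With all genes tested, the median log2 fold change of the 37 was 0.25, against 0.05 over all genes. The risen genes were Slc7a11, Gclc, Gss, Nqo1, Txnrd1, Srxn1, Nfe2l2 and Gpx2, and the fallen genes were Gpx1 and Mgst3. The groups did not overlap for 16 genes that were higher in Ad-Epas1 and 5 that were lower, 56.8% of the 37, where the share over all genes was 39.7%. One array weighed on these counts. Without Ad-Epas1 array 3, 18 antioxidant genes rose (48.6%, where 10.3% of all genes did), the same 2 fell (where 14.0% of all genes did), and all 10 calls of the full fit remained. Leaving out other arrays lowered the count of rises in 4 of 5 cases: it was 3 without Ad-Epas1 array 1 and 2 without Ad-Epas1 array 2, Mock array 2 or Mock array 3, and 9 without Mock array 1. Rises over all genes dropped too, from 1458 to 834 without Ad-Epas1 array 1 and 587 without Ad-Epas1 array 2. They were 425 without Mock array 2, 418 without Mock array 3 and 1053 without Mock array 1. The falls of antioxidant genes were 1 without Ad-Epas1 array 2, Mock array 2 or Mock array 3. Falls over all genes went from 2162 to 925, 762 and 763 in that order. Nqo1, Gclc and Mgst3 kept their call whichever array was left out.

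**Figure D1:**
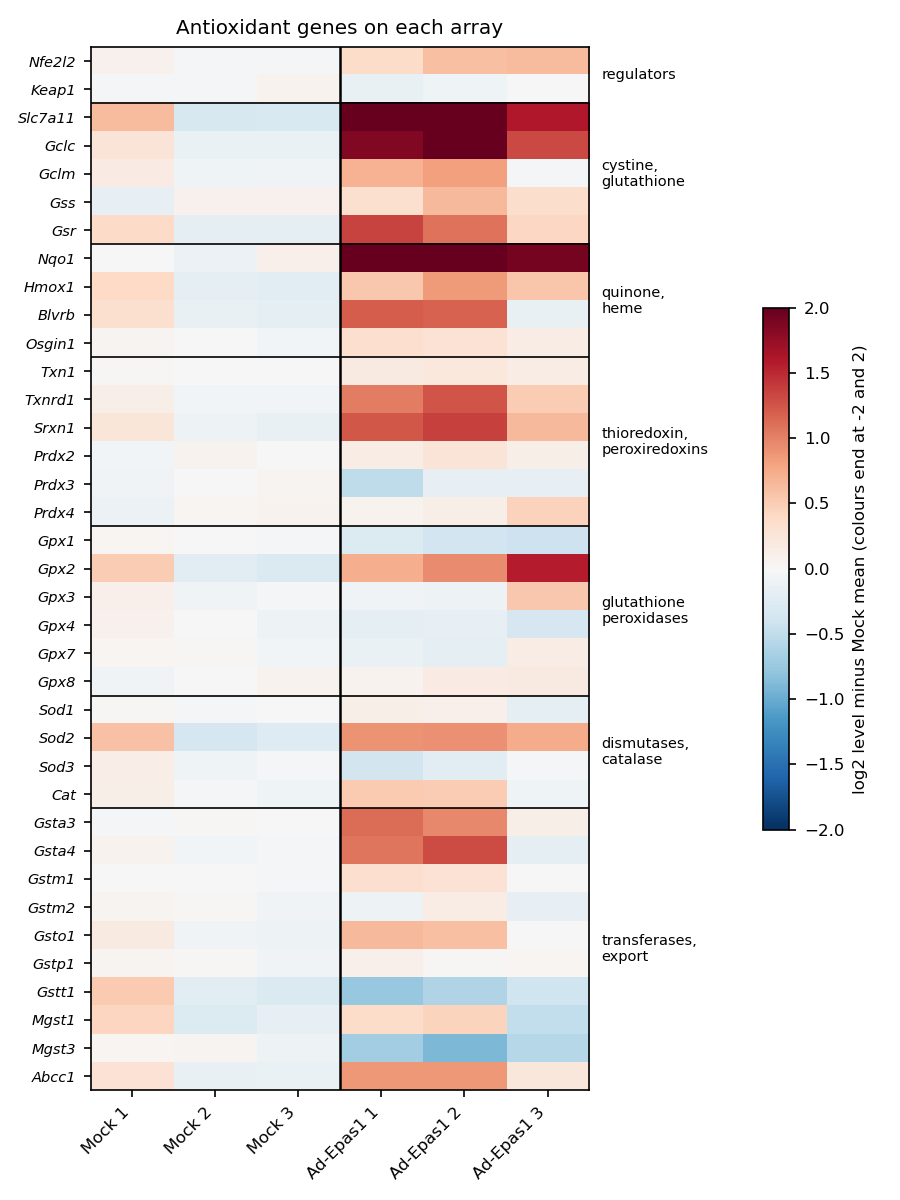
Log2 level of each of the 37 measured antioxidant genes (rows, grouped by role) on each of the 6 arrays (columns), minus the Mock mean of that gene; colours end at -2 and 2. Slc7a11, Gclc and Nqo1 are the darkest rows on Ad-Epas1 replicates 1 and 2, and Ad-Epas1 replicate 3 is paler than these for Slc7a11, Gclm, Blvrb, Gsta3 and Gsta4.

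The delivered gene matched the labels. Epas1 stood at 8.67, 8.71 and 8.51 on Mock arrays 1, 2 and 3 and at 13.14, 13.15 and 13.11 on the Ad-Epas1 replicates in that order, a log2 fold change of 4.50 (SE 0.08, adjusted p = 4.56e-06). Of 12 fibroblast markers, 1 rose (Prg4), 3 fell and 8 did not pass, and without Ad-Epas1 array 3, 1 rose and 6 fell. The fallen ones were Pdgfrb (log2 fold change -1.20, adjusted p = 0.00441), Cdh11 (-1.26, adjusted p = 0.0109) and Col3a1 (-0.89, adjusted p = 0.0290). Thy1, which encodes CD90, stood at 11.17, 11.06 and 11.06 in Mock and at 10.40, 10.60 and 10.98 in Ad-Epas1, and it fell without Ad-Epas1 array 3 (-0.60, adjusted p = 0.00487) but did not pass with it (-0.44, adjusted p = 0.0893). All 12 lay above the range of genes not expected here on every array. The labels state that over 90% of the cells were CD90-positive and under 1% CD14-positive. Cd14 nevertheless stood at 10.42, 9.99 and 10.14 in Mock and at 11.92, 11.40 and 8.62 in Ad-Epas1, and macrophage transcripts were far above that range on 5 arrays. The range was taken from 1373 genes of olfactory and vomeronasal receptors, whose 95th percentile was 6.61. The macrophage genes Adgre1 and Lyz2 stood at 5.89 and 7.15 on Ad-Epas1 array 3, against at least 11.68 and 12.75 on each other array. Over all 16 macrophage markers, the summed level on the linear scale was 43158 to 51889 in Mock, 46622 and 40791 on Ad-Epas1 arrays 1 and 2, and 3262 on Ad-Epas1 array 3, where 8 of the 16 lay under that 95th percentile, against 1 (Cd163) on each other array. Of these 16 markers, none rose, 3 fell (Mrc1, C1qa and C1qc) and 13 did not pass with all arrays, where 9.75% of all genes fell. Without Ad-Epas1 array 3, 1 rose (Cd14) and 4 fell, where 10.3% of all genes rose and 14.0% fell. The 4 were Mrc1 (log2 fold change -2.36), C1qa (-1.65), C1qc (-1.51) and C1qb (-0.95), so single markers were low on Ad-Epas1 arrays 1 and 2 too. The 12 fibroblast markers had a median of -0.46, -0.40 and -0.11 from the Mock mean on the Ad-Epas1 arrays 1, 2 and 3. In such bulk RNA, fewer cells of a type and less RNA per cell cannot be told apart, and the part of the macrophage and fibroblast transcripts in the results below was not tested. Mock array 1 also stood apart: 28 of the 37 antioxidant genes had their highest Mock value there (75.7%, against 42.3% of all genes).

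The antioxidant response element is read here by its core, TGACNNNGC, searched on both strands of the windows that RefSeq (GRCm38.p6) gives from 250 bases before to 50 after each annotated start. A window was at hand for 34 of the 41 genes, with several for 5 of them, and none for Gclc, Gsr, Hmox1, Prdx6, Sod3, Gsta4 and Abcc1. The core was present for 9 of the 34 (26.5%), against 14.0% of 27025 genes. Among genes that rose it was present for 3 of 7, and among genes that rose without Ad-Epas1 array 3 for 5 of 14. For the 17 measured genes with a window that rose in neither fit it was present for 2, Sod1 and Mgst1. A match is a description of letters and not a site, and bases outside the windows were not searched. The stretches are shown so that the letters around the core can be compared between genes of different pathway steps that rose in either fit and genes called in neither. Nfe2l2, Txnrd1 and Srxn1 rose with all arrays, Gclm and Gsta3 only without Ad-Epas1 array 3, and Sod1 and Mgst1 in neither of these fits. Each stretch is written 5′ to 3′ on the strand that carries the core, with the core in capitals.
Nfe2l2: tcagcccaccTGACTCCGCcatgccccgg
Gclm: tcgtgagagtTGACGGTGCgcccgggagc
Txnrd1: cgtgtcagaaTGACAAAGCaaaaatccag
Srxn1: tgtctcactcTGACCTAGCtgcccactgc
Gsta3: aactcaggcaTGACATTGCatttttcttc
Sod1: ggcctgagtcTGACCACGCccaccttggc
Mgst1: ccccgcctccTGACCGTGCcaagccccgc
Counted along the gene from its annotated start, the core began at position -240 for Nfe2l2 (chr2:75704885-75704913, minus strand), -134 for Gclm (chr3:122245413-122245441, minus strand) and -92 for Txnrd1 (chr10:82859104-82859132, minus strand). It began at position 29, after the start, for Srxn1 (chr2:152105542-152105570, minus strand) and at -121 for Gsta3 (chr1:21240454-21240482, plus strand). For Sod1 (chr16:90220696-90220724, minus strand) and Mgst1 (chr6:138140461-138140489, minus strand) it began at -56. The hypoxia response element cores ACGTG and GCGTG, which HIF proteins recognise, were searched in the same way. At least 1 of them was present for 22 of the 34 genes (64.7%), against 46.7% of all genes with a window. Such a core was present for 3 of the 7 risen genes, Gss, Txnrd1 and Srxn1. It was present for 7 of the 14 genes that rose without Ad-Epas1 array 3. Of the 17 measured genes with a window that rose in neither fit, 13 had one (76.5%), a higher share than among the risen genes. In Sod1 and Gstm5 a GCGTG overlapped the antioxidant core.

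The regulators differed from each other. Nfe2l2 stood at 11.61, 11.48 and 11.49 in Mock and at 11.88, 12.12 and 12.16 in Ad-Epas1. All 3 Ad-Epas1 arrays were above all Mock arrays, and array 3 was the highest of them. The rise was 0.53 (SE 0.10, adjusted p = 0.0138), and it lost its call without Mock array 2, Mock array 3 or Ad-Epas1 array 2 (adjusted p up to 0.0689). Keap1, the repressor, lay between 8.84 and 8.95 in Mock and between 8.74 and 8.88 in Ad-Epas1, so the groups overlapped. Its difference of -0.07 had a 95% interval from -0.24 to 0.10 (adjusted p = 0.520). The second probe set of Keap1 differed by -0.16 (adjusted p = 0.193). The transcript level says nothing of the Nrf2 protein, which is regulated mainly by degradation.

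Cystine uptake and glutathione synthesis held the largest rise. Slc7a11 encodes the transport subunit of the cystine-glutamate exchanger, which brings in the cysteine for glutathione. It stood at 8.18, 7.23 and 7.24 in Mock and at 12.01, 11.92 and 9.15 in Ad-Epas1. Arrays 1 and 2 of Ad-Epas1 lay close together, and array 3 lay between them and Mock. The rise was 3.48 (SE 0.76, adjusted p = 0.0265) and 4.41 (SE 0.28, adjusted p = 3.27e-04) without Ad-Epas1 array 3, where the fold was 21.3 in place of 11.1. The call was lost without Ad-Epas1 array 1, Ad-Epas1 array 2, Mock array 2 or Mock array 3 (adjusted p up to 0.103), with a trended robust prior (0.0717) and with the mean over its 2 probe sets (2.56, 0.0545). The dimmer probe set, at 4.24, 4.00 and 4.37 in Mock, stood at 6.51, 6.89 and 4.12 in Ad-Epas1, so array 3 was within the Mock range there. The 250 bases before the annotated start of Slc7a11 (chr3:50443614-50443863, minus strand) hold no TGACNNNGC and neither hypoxia core, and they are shown as those of the gene with the largest rise.
Slc7a11: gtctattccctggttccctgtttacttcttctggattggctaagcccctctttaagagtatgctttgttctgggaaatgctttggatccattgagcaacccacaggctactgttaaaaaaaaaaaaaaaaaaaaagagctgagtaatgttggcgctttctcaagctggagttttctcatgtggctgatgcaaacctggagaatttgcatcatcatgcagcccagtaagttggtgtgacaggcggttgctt

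The ligase that starts glutathione synthesis has 2 subunits. Gclc encodes the catalytic subunit of glutamate-cysteine ligase, which makes the dipeptide that precedes glutathione. It stood at 9.85, 9.47 and 9.47 in Mock and at 11.45, 11.64 and 10.92 in Ad-Epas1, with no overlap. Its rise of 1.74 (SE 0.20, adjusted p = 0.00365) held in each fit that left out an array (adjusted p up to 0.0259). Gclm encodes the modifier subunit of the same enzyme. It stood at 10.92, 10.66 and 10.69 in Mock and at 11.46, 11.58 and 10.73 in Ad-Epas1, so array 3 lay within Mock. The difference of 0.50 did not pass (SE 0.22, adjusted p = 0.174), and without Ad-Epas1 array 3 it was 0.76 (SE 0.10, adjusted p = 0.00323). The bases before the start of Gclm (chr3:122245307-122245556, plus strand) carry the antioxidant core on the opposite strand, in capitals. They also hold 1 ACGTG and 3 GCGTG cores over both strands, which are not in capitals.
Gclm: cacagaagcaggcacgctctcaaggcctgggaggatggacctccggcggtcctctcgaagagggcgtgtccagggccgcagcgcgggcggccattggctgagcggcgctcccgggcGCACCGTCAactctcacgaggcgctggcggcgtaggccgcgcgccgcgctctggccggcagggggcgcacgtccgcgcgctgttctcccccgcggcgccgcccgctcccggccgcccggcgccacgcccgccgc
Gss, which adds glycine to complete glutathione, stood at 8.29, 8.53 and 8.53 in Mock and at 8.77, 9.10 and 8.81 in Ad-Epas1. Its rise of 0.44 (SE 0.12, adjusted p = 0.0467) was close to the threshold and was lost when any array but Ad-Epas1 array 3 was left out (adjusted p up to 0.114). Gsr encodes glutathione reductase, which returns oxidised glutathione to its reduced form. It stood at 9.32, 8.75 and 8.75 in Mock and at 10.30, 10.02 and 9.36 in Ad-Epas1, where array 3 was just above Mock array 1. The difference of 0.95 did not pass (SE 0.27, adjusted p = 0.0551), though it passed without Ad-Epas1 array 3 (1.22, adjusted p = 0.00554), with each array centred on its median (0.97, adjusted p = 0.0484) and with another quantile step (1.02, adjusted p = 0.0417). Across these 5 genes, 3 rose and none fell with all arrays, and all 5 rose without Ad-Epas1 array 3.

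Nqo1 had the firmest rise of the quinone and heme enzymes. It encodes a reductase that turns quinones into hydroquinones in a single step and is a standard readout of Nrf2. Nqo1 stood at 8.76, 8.64 and 8.85 in Mock and at 11.11, 11.45 and 10.66 in Ad-Epas1. The groups lay far apart, and Mock array 1 lay between the other Mock arrays. The rise was 2.32 (SE 0.19, 5.01-fold, adjusted p = 0.0014), and the lowest value with an array left out was 2.13 (adjusted p up to 0.0132). Neither the antioxidant core nor a hypoxia core occurs in the bases before its annotated start (chr8:107403206-107403455, minus strand), shown for comparison with Gclm.
Nqo1: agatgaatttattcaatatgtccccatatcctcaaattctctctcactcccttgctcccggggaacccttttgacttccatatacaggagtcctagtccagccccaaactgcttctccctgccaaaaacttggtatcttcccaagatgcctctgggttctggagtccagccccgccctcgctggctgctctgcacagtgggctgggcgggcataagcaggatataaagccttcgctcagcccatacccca

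Of the heme breakdown genes, Hmox1 lay close to the threshold with all arrays and Blvrb did not. Hmox1 encodes heme oxygenase, which opens heme to biliverdin, iron and carbon monoxide. It stood at 12.24, 11.66 and 11.60 in Mock and at 12.38, 12.69 and 12.38 in Ad-Epas1, so Mock array 1 lay nearer to Ad-Epas1 than to the other Mock arrays. Its difference of 0.65 did not pass (SE 0.19, adjusted p = 0.0586), nor did it without Ad-Epas1 array 3 (0.70, adjusted p = 0.0522), but it passed without Mock array 1 (0.85, adjusted p = 0.0128) and with each array centred on its median (0.67, adjusted p = 0.0492). Blvrb encodes a flavin and biliverdin reductase. It stood at 8.83, 8.36 and 8.33 in Mock and at 9.71, 9.68 and 8.37 in Ad-Epas1, with array 3 inside the Mock range. Over all arrays it differed by 0.75 (SE 0.37, adjusted p = 0.212), and it rose by 1.19 without that array (adjusted p = 0.00293). Osgin1, an oxidative stress-induced growth inhibitor, stood at 8.56, 8.51 and 8.45 in Mock and at 8.84, 8.79 and 8.66 in Ad-Epas1. The groups were apart but close, and the difference of 0.25 (adjusted p = 0.0669) became 0.31 (adjusted p = 0.0259) without Ad-Epas1 array 3. With each array centred on its median Osgin1 also passed (0.28, adjusted p = 0.0471), as it did with another quantile step (0.37, adjusted p = 0.0193).

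**Figure D2:**
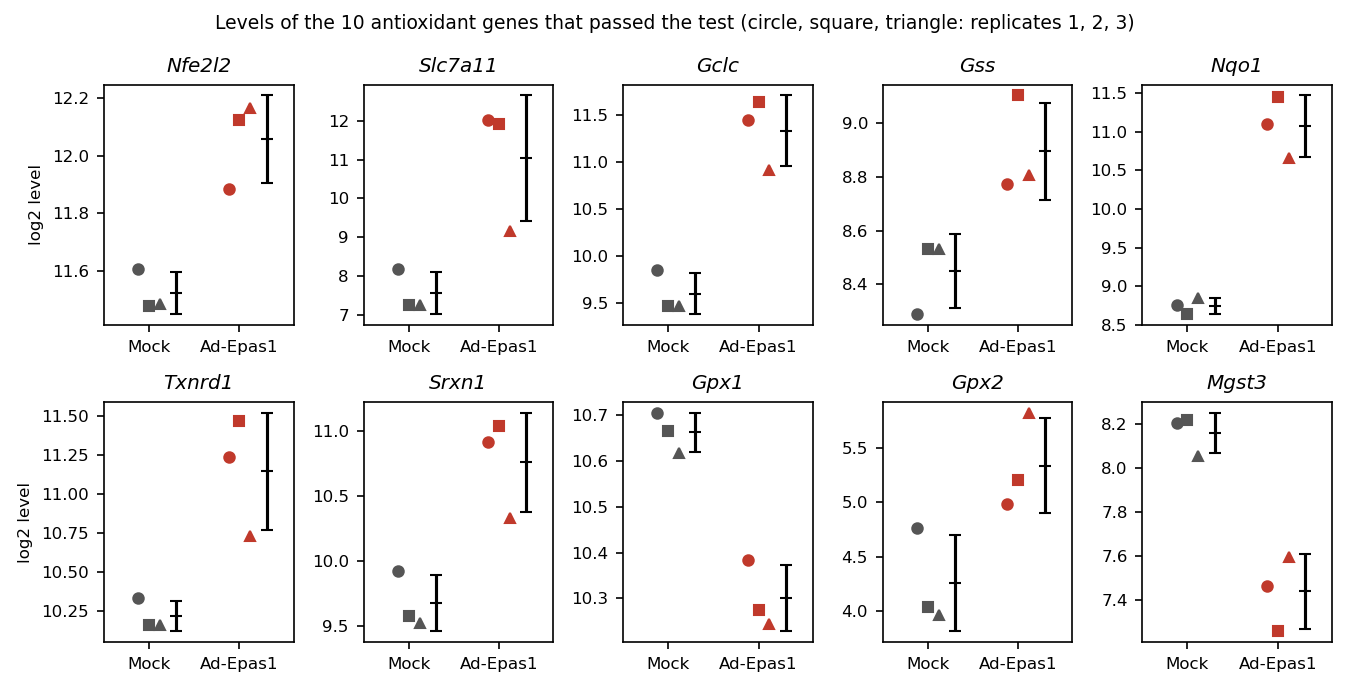
Log2 level on each array for the 10 antioxidant genes that passed the test with all arrays; grey is Mock, red is Ad-Epas1, circles, squares and triangles are replicates 1, 2 and 3, and bars are mean ± SD (n = 3). No panel shows overlapping groups, and Ad-Epas1 replicate 3 (triangle) is the lowest Ad-Epas1 array for Slc7a11, Gclc, Nqo1, Txnrd1, Srxn1 and Gpx1 and the highest for Nfe2l2, Gpx2 and Mgst3.

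In the thioredoxin system, 2 of 6 measured genes rose and none fell. Txnrd1 encodes the cytosolic thioredoxin reductase, which keeps thioredoxin reduced. It stood at 10.33, 10.16 and 10.16 in Mock and at 11.24, 11.47 and 10.73 in Ad-Epas1. Its rise was 0.93 (SE 0.18, adjusted p = 0.0186) and 1.14 without Ad-Epas1 array 3. Srxn1 encodes sulfiredoxin, which repairs overoxidised peroxiredoxins. Srxn1 stood at 9.92, 9.57 and 9.52 in Mock and at 10.91, 11.04 and 10.33 in Ad-Epas1, a rise of 1.09 (SE 0.20, adjusted p = 0.0161) and 2.47-fold without Ad-Epas1 array 3. In both genes array 3 was the lowest Ad-Epas1 array and yet above all Mock arrays, and both calls were lost without Ad-Epas1 array 1, Ad-Epas1 array 2, Mock array 2 or Mock array 3 (adjusted p up to 0.0806 and 0.0731). The window of Txnrd1 that holds the antioxidant core, 1 of its 3 windows, is shown with the core in capitals (chr10:82858956-82859205, plus strand). The bases shown also hold a GCGTG at position -45, not in capitals.
Txnrd1: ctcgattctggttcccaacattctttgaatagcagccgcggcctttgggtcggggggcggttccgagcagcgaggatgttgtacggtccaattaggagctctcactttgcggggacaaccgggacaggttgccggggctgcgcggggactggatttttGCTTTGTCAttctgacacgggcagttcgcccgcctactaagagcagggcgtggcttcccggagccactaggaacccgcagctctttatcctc

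Their partners gave no call. Txn1, thioredoxin itself, lay between 11.68 and 11.71 in Mock and between 11.83 and 11.91 in Ad-Epas1. These groups did not overlap, but the difference of 0.18 did not pass (adjusted p = 0.0934, 95% interval 0.03 to 0.33). The peroxiredoxins, which reduce peroxides with electrons from thioredoxin, gave no call in either fit. Prdx2, a cytosolic form, differed by 0.17 (adjusted p = 0.158). Prdx3, the mitochondrial form, differed by -0.28 (adjusted p = 0.128), with Ad-Epas1 values from 9.91 to 10.26 below Mock values from 10.36 to 10.48. Prdx4, of the endoplasmic reticulum, differed by 0.22 (adjusted p = 0.252), and its highest value, 8.16, was on Ad-Epas1 array 3.

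Glutathione peroxidases, which spend glutathione to reduce peroxides, were split: 1 of 6 rose, 1 fell and 4 did not pass. Gpx1, the abundant cytosolic form, stood at 10.70, 10.67 and 10.62 in Mock and at 10.38, 10.27 and 10.24 in Ad-Epas1. It was lower on all 3 Ad-Epas1 arrays and fell by 0.36 (SE 0.07, adjusted p = 0.0175), or by 0.33 without Ad-Epas1 array 3 (adjusted p = 0.0211). Leaving out Mock array 2, Mock array 3 or Ad-Epas1 array 2 ended the call (adjusted p up to 0.0801). Gpx2, known from gut epithelium, stood at 4.77, 4.03 and 3.96 in Mock and at 4.98, 5.21 and 5.82 in Ad-Epas1, and array 3 was the highest. Its rise of 1.08 (SE 0.28, adjusted p = 0.0459) lay wholly under the 6.61 that marks receptor genes not expected here, so its fold is not exact. It was lost without Ad-Epas1 array 1, Ad-Epas1 array 2, Mock array 2 or Mock array 3 (adjusted p up to 0.156) and with a trended robust prior (0.0541). Gpx4, which protects membrane lipids, differed by -0.23 (95% interval -0.43 to -0.03, adjusted p = 0.118). Gpx7 and Gpx8, peroxidases of the endoplasmic reticulum, differed by -0.06 (adjusted p = 0.729) and 0.14 (adjusted p = 0.232). Gpx3, the secreted form, stood at 9.37 on Ad-Epas1 array 3 and between 8.74 and 8.93 on the other 5 arrays, so that its difference was 0.12 with all arrays and -0.09 without that array (adjusted p = 0.670 and 0.483).

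Among superoxide dismutases and catalase, none of 4 genes passed limma's test with all arrays, and 1 was higher and 0 lower at an unadjusted p under 0.05. No share over all genes was counted at that unadjusted threshold. Sod2, the mitochondrial dismutase and a gene that inflammatory signals also raise, stood at 12.33, 11.41 and 11.49 in Mock and at 12.64, 12.65 and 12.49 in Ad-Epas1. The Ad-Epas1 arrays agreed closely, and the spread lay in Mock, where replicate 1 was close to Ad-Epas1. Its difference of 0.85 (SE 0.24, adjusted p = 0.0553) became 1.15 without Mock array 1 (adjusted p = 0.00208), and it passed with each array centred on its median (0.87, adjusted p = 0.0484). Cat encodes catalase, which splits hydrogen peroxide. It stood at 11.90, 11.75 and 11.69 in Mock and at 12.30, 12.28 and 11.69 in Ad-Epas1. Array 3 lay within Mock, and the difference of 0.31 (adjusted p = 0.255) was 0.51 without that array (adjusted p = 0.0073). Sod1, the cytosolic dismutase, differed by 0.01 (95% interval -0.22 to 0.24, adjusted p = 0.957). Sod3, the extracellular form, differed by -0.21 (adjusted p = 0.235), with Ad-Epas1 values of 11.75, 11.89 and 12.09 against 12.04 to 12.25 in Mock.

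The glutathione transferases, which couple glutathione to electrophiles, and the conjugate exporter Abcc1 depended on the arrays used. With all arrays none of these 10 genes rose by limma's adjusted p and 1 fell, and without Ad-Epas1 array 3, 5 rose and 1 fell. At an unadjusted limma p under 0.05 with all arrays, 2 were higher and 2 lower. The share of all genes at that threshold was not counted, so these counts have no background. Mgst3, a membrane-bound transferase, was the fallen gene. It stood at 8.21, 8.22 and 8.05 in Mock and at 7.46, 7.26 and 7.60 in Ad-Epas1, with no overlap. Mgst3 fell by 0.72 on the log2 scale (SE 0.10, adjusted p = 0.00708), and the call held with any array left out (adjusted p up to 0.0429). Gsta4, an alpha-class transferase for lipid aldehydes, stood at 7.52, 7.40 and 7.43 in Mock and at 8.53, 8.75 and 7.26 in Ad-Epas1, so array 3 was below every Mock array. It differed by 0.73 with all arrays (SE 0.36, adjusted p = 0.217) and rose by 1.19 without that array (SE 0.09, adjusted p = 5.13e-04). Gsta3, of the same class, stood at 5.35, 5.42 and 5.41 in Mock and at 6.51, 6.36 and 5.51 in Ad-Epas1. All its values lay under 6.61, the bound of the receptor genes, and its rise of 1.04 without Ad-Epas1 array 3 (adjusted p = 4.91e-04) followed 0.73 with all arrays (adjusted p = 0.0933).

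Gsto1, Gstm1 and Abcc1 missed the threshold with all arrays and passed without Ad-Epas1 array 3. Gsto1, an omega-class enzyme, stood at 10.38, 10.13 and 10.09 in Mock and at 10.85, 10.79 and 10.21 in Ad-Epas1. Its difference was 0.42 with all arrays (adjusted p = 0.168) and 0.62 without Ad-Epas1 array 3 (adjusted p = 0.00707). Gstm1, a mu-class enzyme, stood at 8.11, 8.10 and 8.07 in Mock and at 8.43, 8.38 and 8.10 in Ad-Epas1, and it differed by 0.21 (adjusted p = 0.199) and by 0.31 without that array (adjusted p = 0.0188). Gstm1 and Gstm2 are close relatives, and whether their probe sets bind each other's transcripts was not tested. Gstm2 differed by -0.04 (95% interval -0.27 to 0.19, adjusted p = 0.825). Abcc1, which exports glutathione conjugates, stood at 10.95, 10.50 and 10.52 in Mock and at 11.53, 11.52 and 10.89 in Ad-Epas1. Here array 3 lay under Mock array 1, and the difference was 0.66 (adjusted p = 0.0777) and 0.87 without that array (adjusted p = 0.0067).

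The remaining transferases gave no call in either fit. Gstp1, the pi-class enzyme, lay between 11.20 and 11.36 on all 6 arrays and differed by 0.05 (95% interval -0.10 to 0.21, adjusted p = 0.615). Gstt1, of the theta class, stood at 9.62 on Mock array 1 and between 8.34 and 8.87 on the other arrays, and differed by -0.59 (adjusted p = 0.127). Mgst1, a microsomal transferase, was at 9.20, 8.48 and 8.60 in Mock and at 9.13, 9.20 and 8.26 in Ad-Epas1 (0.11, adjusted p = 0.831). With both Mock array 1 and Ad-Epas1 array 3 left out, a choice made after seeing the data, Mgst1 was higher by 0.63 (adjusted p = 0.00366) and Gstt1 lower by a log2 fold change of -0.42 (adjusted p = 0.0203). In that fit of 2 against 2 arrays, 20 of the 37 antioxidant genes rose (11.8% of all genes did) and 3 fell (15.2% of all genes did). Of the 27 genes not called with all arrays, 15 had a 95% interval within a change of 1.5-fold in either direction.

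**Figure D3:**
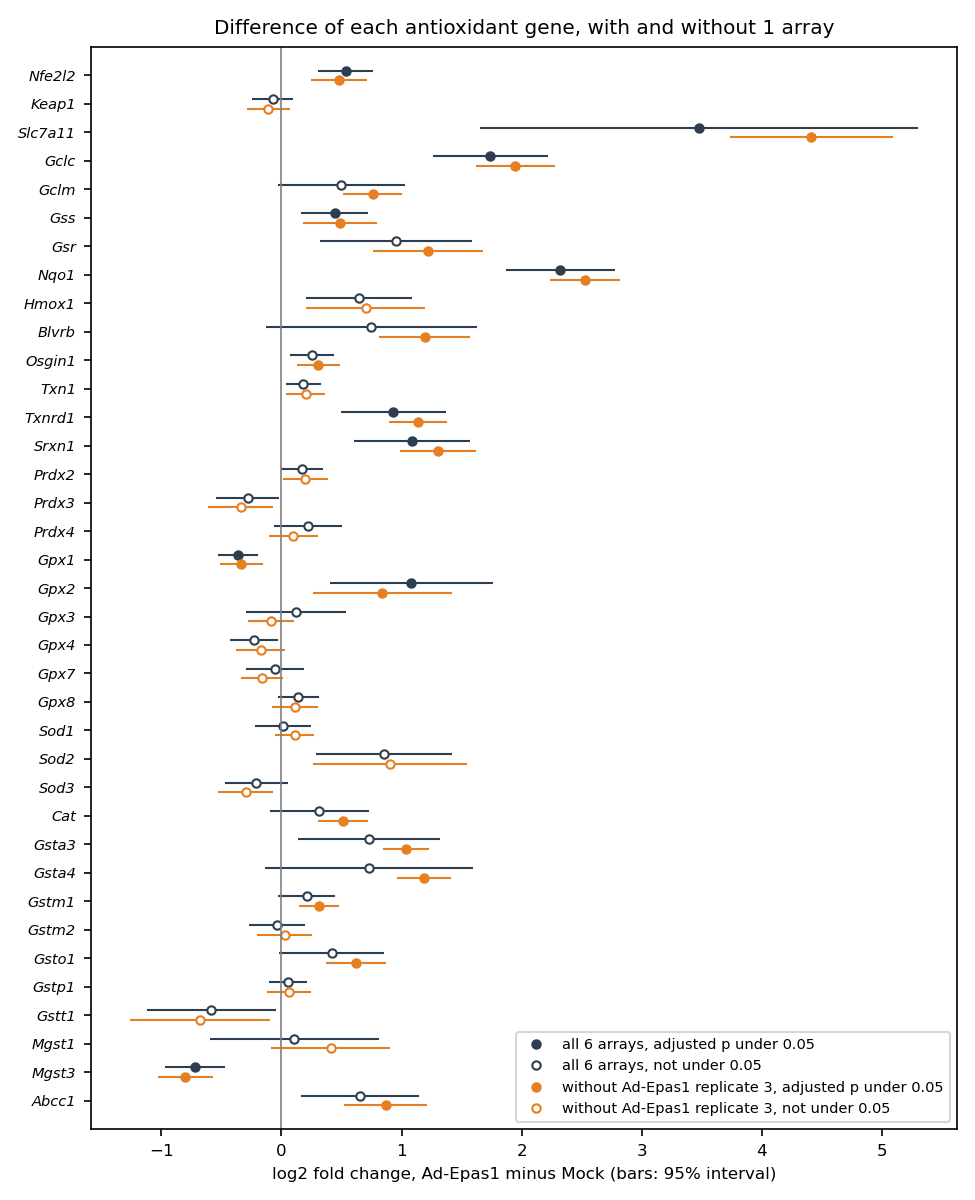
Log2 fold change of Ad-Epas1 over Mock with its 95% interval for the 37 measured antioxidant genes, with all 6 arrays (dark) and without Ad-Epas1 replicate 3 (orange); filled points have an adjusted p under 0.05. The intervals of Slc7a11, Gsta3, Gsta4 and Blvrb are shorter without that array, and the number of filled points above 0 goes from 8 to 18.

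Ad-Epas1 array 3 was read gene by gene. For 19 of the 37 this array lay above all Mock arrays, for 9 it lay within their range and for 9 below it. It was the lowest Ad-Epas1 array for 23 of the 37, against 31.8% of all genes. Among genes that rose without it, it was the lowest for 15 of the 18 antioxidant genes (83.3%) and for 75.4% of all such genes. The 8 genes that rose with all arrays had a median of 0.99 above the Mock mean on that array, against 1.13 and 1.31 on Ad-Epas1 arrays 1 and 2. The 10 genes that rose only without it had a median of 0.00 there, against 0.79 and 0.84. Both contrasts are set in part by the selection. A gene called with all arrays passed with the value of that array in the fit, and a gene called only without an array had to differ there. These 10 genes were Gclm, Gsr, Blvrb, Osgin1, Cat, Gsta3, Gsta4, Gstm1, Gsto1 and Abcc1. On 7 of them array 3 was at or below the highest Mock array, and on Gsr, Osgin1 and Gsta3 it was above. Among all 2290 genes that rose without array 3, the array lay above all Mock arrays for 81.1%, against 61.1% of the 18 antioxidant genes. The same array held the low macrophage transcripts described above (Adgre1 at 5.89), and the part of these in the values was not tested.

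**Figure D4:**
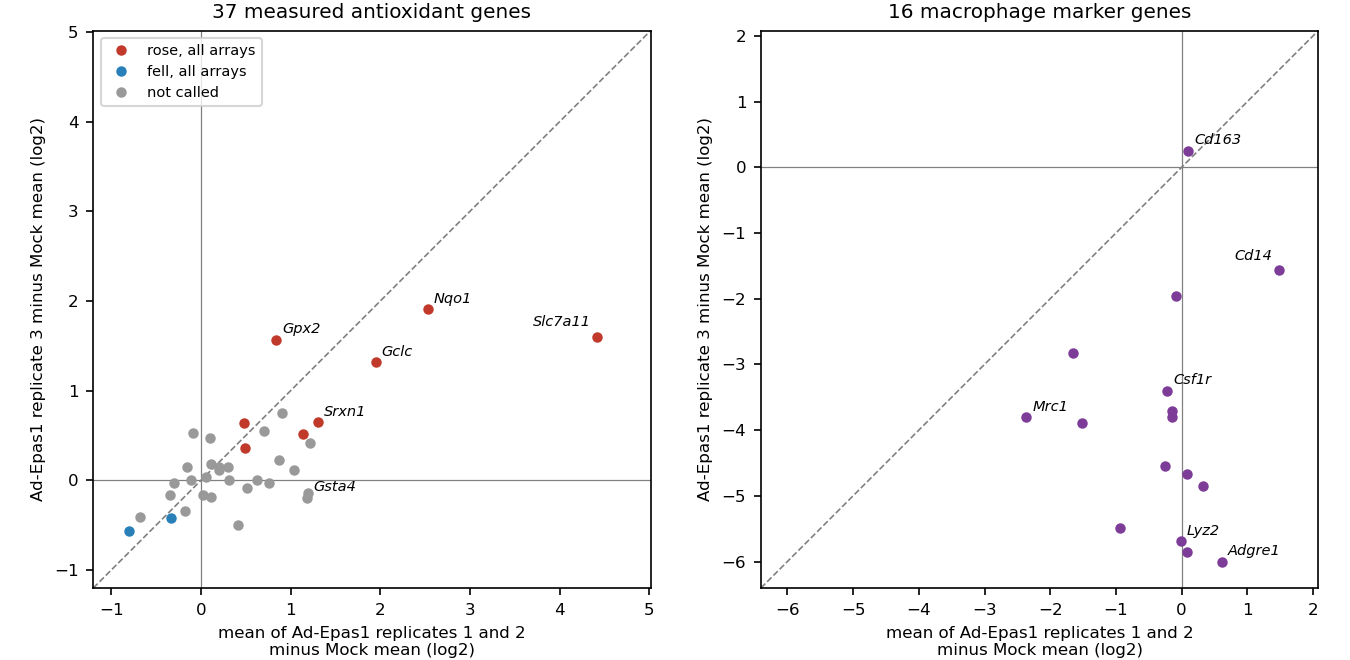
Difference from the Mock mean on Ad-Epas1 replicate 3 (vertical axis, log2) against the mean difference on Ad-Epas1 replicates 1 and 2 (horizontal axis, log2) for the 37 antioxidant genes (left; red rose and blue fell with all arrays, grey not called) and the 16 macrophage markers (right); the dashed line marks equal differences. Nqo1 and Gclc stay above 0 on both axes, Gsta4 lies below 0 on replicate 3, and all macrophage markers but Cd163 lie below the line on replicate 3.

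Further genes of the pathway were read from 3 lists of 88 symbols, of which 77 were measured. In the list of other Nrf2 partners and targets, 7 of 28 rose, 1 fell and 20 did not pass, with a median of 0.17 (0.05 over all genes), where 6.57% of all genes rose and 9.75% fell. Without Ad-Epas1 array 3, 11 of the 28 rose and 2 fell, where 10.3% of all genes rose and 14.0% fell. Maff and Mafk, small Maf proteins that pair with Nrf2 and also with repressors, rose by 1.05 (SE 0.07, adjusted p = 9.34e-04) and 1.00 (SE 0.10, adjusted p = 0.00226). For both, array 3 was close to the other Ad-Epas1 arrays: Mafk stood at 8.84, 8.64 and 8.52 in Mock and at 9.64, 9.75 and 9.62 in Ad-Epas1. Ugdh, which makes the UDP-glucuronic acid used for conjugation and hyaluronan, rose by 1.19 (SE 0.09, adjusted p = 9.82e-04). Idh1, a cytosolic source of NADPH, was the fallen gene (log2 fold change -0.58, adjusted p = 0.0397), and it lost its call when any array but Ad-Epas1 array 3 was left out (adjusted p up to 0.120).

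Of 34 other measured genes of glutathione and thioredoxin metabolism, none rose by limma's adjusted p, 7 fell and 27 did not pass, with a median of -0.14. At an unadjusted limma p under 0.05, 2 were higher and 13 lower, and the share of all genes at that threshold was not counted. By the adjusted p, falls outnumbered rises over all genes too, with 2162 falls (9.75%) and 1458 rises (6.57%). Without Ad-Epas1 array 3, 2 of the 34 rose and 11 fell, where 10.3% of all genes rose and 14.0% fell. The count of falls was 1 without Mock array 2, Mock array 3 or Ad-Epas1 array 2. Falls over all genes dropped to 762, 763 and 925 in that order. The falls with the smallest p were those of Msrb2, a mitochondrial methionine sulfoxide reductase (log2 fold change -0.52, adjusted p = 0.00676), Gstk1, the kappa-class transferase (-0.68, adjusted p = 0.0130), and Txnip, which binds and inhibits thioredoxin (-0.35, adjusted p = 0.0139). Gstk1 and Txnip lost their calls without Mock array 2, Mock array 3 or Ad-Epas1 array 2 (adjusted p up to 0.0645 and 0.0733). Txnip stood at 11.60, 11.67 and 11.66 in Mock and at 11.33, 11.28 and 11.29 in Ad-Epas1, with no overlap.

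Of 15 measured enzymes that make oxidants, 1 rose, 4 fell and 10 did not pass, where 6.57% of all genes rose and 9.75% fell. The median of the list was -0.45, against 0.05 over all genes, and -0.12 without Ad-Epas1 array 3, against 0.03. Maob, a mitochondrial amine oxidase that gives off hydrogen peroxide, stood at 9.67, 9.10 and 9.25 in Mock and at 6.57, 6.71 and 6.67 in Ad-Epas1, a log2 fold change of -2.69 (SE 0.15, adjusted p = 4.02e-04). Nox4, the NADPH oxidase of fibroblasts, stood at 9.43, 9.32 and 9.33 in Mock and at 7.21, 7.35 and 8.21 in Ad-Epas1 (-1.77, SE 0.25, adjusted p = 0.00658). Maoa changed by -1.18 (adjusted p = 0.0110), a call that ended without Mock array 2 or Mock array 3 (adjusted p up to 0.0548). Nox3, the risen gene, lay under 6.61 on all arrays (0.47, adjusted p = 0.0225), and its call ended without Ad-Epas1 array 1, Ad-Epas1 array 2, Mock array 2 or Mock array 3 (adjusted p up to 0.0966). Cybb, the phagocyte NADPH oxidase and a gene named after its values were seen, stood at 12.06, 11.48 and 11.53 in Mock and at 12.67, 12.32 and 5.83 in Ad-Epas1, so that its low value lay on the array with low macrophage transcripts.

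**Figure D5:**
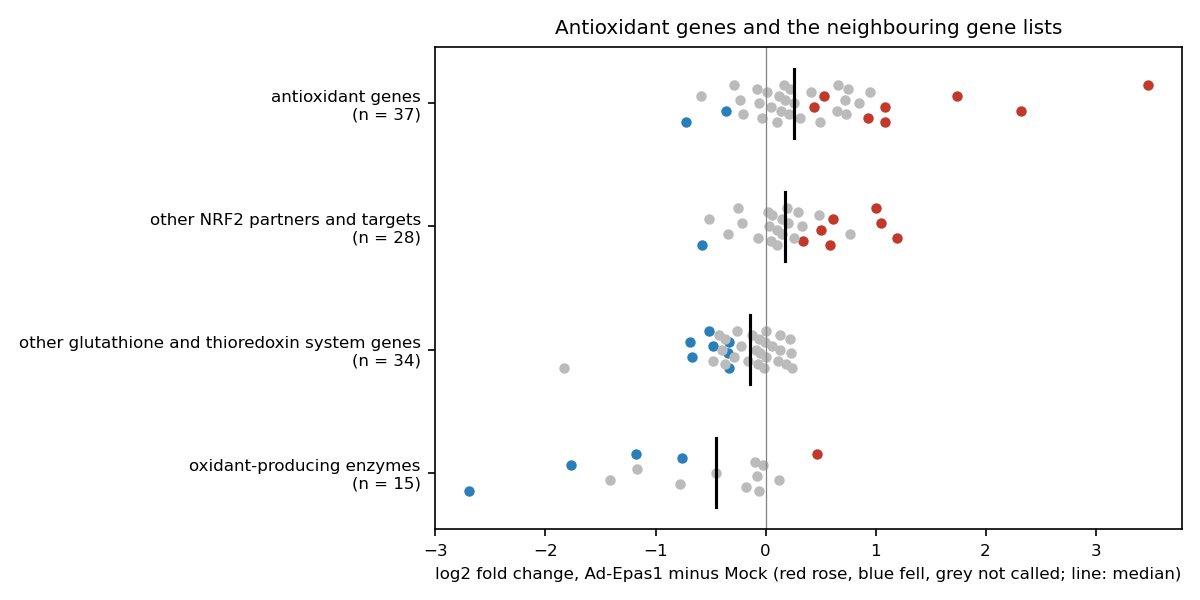
Log2 fold change of Ad-Epas1 over Mock, all 6 arrays, for the 37 antioxidant genes and for the 3 further lists (28, 34 and 15 measured genes); each point is a gene, red rose, blue fell, grey did not pass, and the black line is the median of the list. The medians lie at 0.25, 0.17, -0.14 and -0.45.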

How the data were processed

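Total RNA of 6 samples (3 Mock, 3 Ad-Epas1, grouped by their titles) was labelled from 300 ng and hybridised to Affymetrix whole-transcript arrays. The authors deposited log2 levels made by RMA. The submitters' processing notes name Affymetrix Expression Console 1.3.1 for this step, and no genome build was found in the labels. Quantile normalization within RMA hides changes shared by most genes, and probe summaries compress large folds. Of 41345 probe sets, 23521 carried 1 symbol, 1814 several and 16010 none, and 1 probe set per gene left 22180 genes with no filter on level. Of the 23521, 23328 matched a RefSeq table (GRCm38.p6) by Entrez identifier, which changed 0 symbols. All value columns belonged to the 6 samples (0 unused).

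Groups were compared with limma 3.58.1 (lmFit and eBayes) under R 4.3.3. Tests were two-sided, p-values were adjusted by Benjamini-Hochberg across the 22180 genes, and calls needed an adjusted p under 0.05. The fit was also run on simulated arrays with independent noise and no deviating array, so that run does not bear on the calls given here. An exact permutation test of 3 against 3 cannot go below p = 0.1. The genes and lists were chosen with earlier results of these data known, so no p adjusted over a list alone and no set test is given. All listed antioxidant genes are named; of the further lists, up to 3 rises and 3 falls with the smallest p, with Epas1 and the main markers of macrophages and fibroblasts. Values in full are given for genes called with all arrays or without Ad-Epas1 replicate 3, and others were added where a value stood out. Alternatives were a replicate block, each array left out, another quantile step, median centring, only genes above the median level, a trended robust prior and the mean over probe sets. Leaving out Mock replicate 1 together with Ad-Epas1 replicate 3 was chosen after seeing the data. The numbers were not taken as pairs, since the design text names no pairing. Deviations of same-numbered arrays correlated at 0.34, -0.19 and 0.21 for numbers 1, 2 and 3. Those of differently numbered arrays ranged from -0.33 to 0.27, and so few values cannot decide whether the arrays were paired.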

Additional observations from a re-analysis of the deposited data

How the results depend on the processing

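With 1 array left out at a time, rises over all genes ranged from 418 to 2290 and falls from 762 to 3100, against 1458 and 2162. For the 37 antioxidant genes, rises ranged from 2 to 18 and falls from 1 to 2. For other Nrf2 partners and targets the ranges were 4 to 11 rises and 0 to 2 falls, for other glutathione and thioredoxin genes 0 to 2 and 1 to 11, and for oxidant-producing enzymes 0 to 2 and 2 to 4. With Mock replicate 1 and Ad-Epas1 replicate 3 left out together, chosen after seeing the data, 2621 genes rose and 3379 fell, 20 antioxidant genes rose, and the lists gave 13 rises and 2 falls, 2 rises and 14 falls, and 3 rises in that order, and 3 antioxidant genes fell. The calls with another quantile step split 1913 higher to 1731 lower (52.5% higher, against 40.3%), with 11 antioxidant genes higher; that step gave 2 falls among Nrf2 partners and targets and 1 rise among glutathione genes. Median centring gave 12 rises of antioxidant genes and 1 rise of glutathione genes, where 1732 of all genes rose and 1928 fell. Only genes above the median level gave 12 rises of antioxidant genes, 2 falls of Nrf2 partners and 0 rises of oxidant producers. Over all genes that fit gave 1378 rises and 2180 falls from fewer tested genes, so the shares of called genes were higher. A trended robust prior gave 6 rises of antioxidant genes and 2 falls of Nrf2 partners, where 1511 of all genes rose and 2241 fell. The mean over probe sets gave 7 rises of antioxidant genes, where 1437 of all genes rose. With the replicate block 10 antioxidant genes rose, while 1140 of all genes rose and 1968 fell. Gsr (adjusted p = 0.0185), Sod2 (0.0481) and Abcc1 (0.0446) passed in that fit and Gpx2 did not (0.0862), and 0 Nrf2 partners fell. Differences near 0 changed sign without passing the test: Keap1 (0.030 with the quantile step), Gpx3 (-0.087 to 0.228 with an array left out, -0.087 without Ad-Epas1 replicate 3, -0.038 without both arrays), Gpx7 (-0.159 to 0.0042), Sod1 (-0.047 to 0.122 and -0.030 with the quantile step), Gstm2 (-0.127 to 0.050 and 0.076 with the quantile step) and, with a pass only at its highest value, Mgst1 (-0.064 to 0.627). These ranges include the fit without both arrays. The cause of these shifts was not tested. Gpx2 and Gsta3 lay under the bound of the receptor genes on all arrays, so their folds are not exact.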
